A study of Homo sapiens with 60 samples.

Results

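The genes described here encode the voltage-gated sodium, potassium and calcium channels and their closest relatives. They were taken from the table by gene symbol: the SCN genes of sodium channels, the KCN genes of potassium channels, the CACNA, CACNB and CACNG genes of calcium channels, and the HCN genes, without antisense names. Of 135 such names, 84 reached 1 CPM (1 read per 1000000 assigned reads) in at least 3 libraries and 51 did not. CACNA1C-IT2, an intronic transcript of CACNA1C, carried the same reads as CACNA1C in all 60 libraries, so 83 genes with values of their own were counted, among 15263 genes of the whole table that passed the same filter. The symbols also bring in families that are not opened by voltage: the inward rectifiers (Kir, 8 genes), the two-pore leak channels (K2P, 10 genes), channels gated by intracellular calcium or sodium (5 genes), and the noncoding KCNQ1OT1.

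The measurements are RNA-seq of SH-SY5Y, an established human neuroblastoma line of genotype WT, differentiated towards neurons over 18 days. Lead (Pb) at 0, 0.16, 1.26 or 10 µM was present from day 5 to the end, renewed with the medium. Dishes were collected at days 6, 9, 12, 15 and 18, which gives 20 groups of 3 dishes, each with its own library. The cells were 1 line at passage 39, so the spread between dishes holds no variation between lines or donors, and nothing states that the dishes of a group were separate differentiations.

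Voltage-gated channels set the electrical behaviour of a neuron. Sodium channel alpha subunits (Nav) carry the upstroke of the action potential, and their beta subunits tune gating and anchor the channel. Potassium channels repolarise the membrane and set its resting level, while calcium channel alpha1 subunits (Cav) turn depolarisation into calcium entry, which releases transmitter and drives transcription. The alpha2delta and beta subunits bring Cav alpha1 to the surface, and several gamma subunits act mainly as partners of AMPA-type glutamate receptors. Pb2+ is a known blocker of Cav channels and is carried into cells in place of calcium.

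Libraries held 16594259 to 50539599 assigned reads, so that 3 reads were worth 0.0594 to 0.181 CPM. Neuronal markers (8 of 8) and noradrenergic neuroblastoma markers (6 of 6) passed the filter. Among markers of other cells, 3 of 4 basal keratins passed; their summed level was 73.2 to 113 CPM at day 18, against 1.30 to 1.64 CPM at day 6 without Pb. The column names of all day 18 libraries start with another prefix than those of days 6 to 15; what the prefix stands for is not stated, and day 18 cannot be told apart from it. Low levels of long transcripts marked 2 libraries, day 18 at 0 µM replicate 1 and day 6 at 10 µM replicate 3: the slope of log2 level on log10 transcript length was -0.43 and -0.41, and the next lowest library was at -0.17.

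On the scale of CPM per kb of exon, which allows levels of different genes to be compared, the most abundant channel gene on every day was KCNH2, the ERG potassium channel that shortens the cardiac action potential and is known from neuroblastoma cells. It stood at 40.2 ± 2.22 CPM per kb at day 18, against 68.5 ± 9.83 CPM per kb at day 6 (SD, n = 3 dishes each, 0 µM). At day 18 it was followed by CACNA2D2 at 32.2 ± 6.23, CACNG4 at 29.2 ± 1.71, CACNB3 at 26.3 ± 0.771, KCNJ8 at 24.0 ± 0.223 and HCN3 at 20.02 ± 2.81 CPM per kb. The means of CACNA2D2 and CACNG4 lay closer together than the SD of CACNA2D2. KCNJ8 held rank 5 at day 18, against rank 14 at day 6. Pore-forming subunits of calcium channels were low on this scale: the 5 Cav alpha1 genes summed to 4.51 ± 0.436 CPM per kb at day 18, while the 3 alpha2delta genes summed to 41.0 ± 6.68 and the 4 beta genes to 33.7 ± 1.40 CPM per kb.

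**Figure D1:**
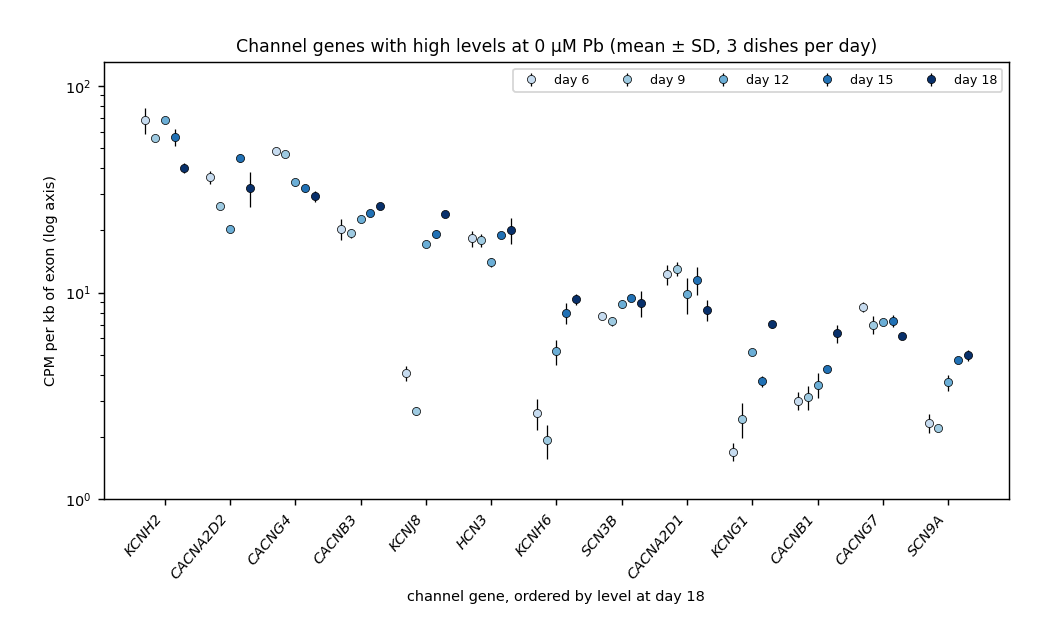
Level of channel genes that were among the highest at day 18 in cells without Pb, in CPM per kb of exon on a log axis; points are means of 3 dishes at days 6, 9, 12, 15 and 18 from left to right, bars are SD. KCNH2 is highest on every day, and KCNJ8, KCNH6 and KCNG1 have day 18 levels well above those of day 6.

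Within several families 1 gene held most of the family's level per kb. HCN3, a subunit of the hyperpolarisation-activated cation channels, made up 96.5% ± 0.788 of the HCN level at day 18 and 96.5% ± 0.0461 at day 6. CACNB3, a cytoplasmic beta subunit, made up 78.2% ± 1.47 of the beta level at day 18 and 83.2% ± 0.456 at day 6. Other families changed their make-up. KCNH2 made up 68.9% ± 1.29 of the EAG family at day 18 and 89.6% ± 0.615 at day 6, while KCNH6, another ERG channel, made up 15.9% ± 0.272 at day 18 and 3.41% ± 0.223 at day 6. KCNJ8 made up 85.4% ± 0.430 of the Kir family at day 18, against 51.5% ± 4.38 at day 6. Among Kv1 to Kv4 channels, KCNA3 (Kv1.3) made up 34.2% ± 6.77 at day 18 and 65.1% ± 3.55 at day 6, while KCND1 (Kv4.1, an A-type channel) made up 32.3% ± 2.95 at day 18 and 9.34% ± 2.04 at day 6 (SD, n = 3 dishes, 0 µM).

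Of the 51 names under the filter, CACNA1A, the P/Q-type channel of central synapses, reached at most 0.414 CPM and CACNA1H, a T-type channel, at most 0.345 CPM in any library. Of the 83 genes counted, 49 were at or above 1 CPM in all 60 libraries and 17 were there in fewer than 30. Values at or under 3 reads occurred for 17 genes.

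The first question is how channel transcripts changed over differentiation without Pb. Differences were tested on log2(CPM + 1) with limma, and a gene was called where the p-value adjusted by the Benjamini-Hochberg method over all 15263 genes was under 0.05; changes are given on this log2 scale with their standard error (SE), and the scale understates changes of low genes. At day 18 against day 6, 41 channel genes rose and 15 fell, that is 56 of 83, beside 66.8% of all genes called. The share called was thus close to that of all genes. The median log2 change was 0.32 over the channel genes and -0.03 over all genes; 32.1% of all genes were called higher and 34.7% lower. Genes that passed the filter only through a day on which they were high had to differ between days. In 11 channel genes no library of day 6 reached 1 CPM: SCN1A, SCN7A, KCNA2, KCNA7, KCNG4, KCNJ5, KCNJ10, KCNJ11, KCNN4, KCNK4 and KCNK13. Of these, 9 are among the 41 counted as higher, and their values over days are a description.

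Sodium channel genes that changed at day 18 all rose. SCN9A encodes Nav1.7, a channel of sympathetic and sensory neurons that amplifies small depolarisations. It had 69.0, 71.9 and 63.7 CPM at day 18, against 36.0, 29.6 and 30.9 CPM at day 6. All 3 day 18 dishes were above all day 6 dishes, and the log2 change was 1.06 (SE 0.06; adjusted p = 2.08e-19, limma). SCN1A (Nav1.1, 0.76, SE 0.15) and SCN7A (Nax, a sodium-sensing relative, 0.44, SE 0.17) were higher as well. SCN1A reached 1 CPM in 7 libraries, all of day 18, so that its difference is fixed by the filter. SCN7A reached 1 CPM in no library of day 6, so its difference from day 6 is a description. SCN3A gave -0.10, SCN2A 0.11, SCN8A 0.00 and SCN11A 0.25, none of them called.

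The beta subunits SCN2B and SCN4B, which link covalently to the alpha subunit, moved most among sodium channel genes. SCN2B had 10.7, 14.7 and 13.9 CPM at day 18, against 3.19, 2.57 and 2.81 CPM at day 6, a log2 change of 1.86 (SE 0.13; adjusted p = 7.47e-17, limma). SCN4B had 7.11, 11.8 and 13.7 CPM at day 18, against 3.78, 2.51 and 1.82 CPM at day 6, a change of 1.67 (SE 0.20; adjusted p = 4.69e-10, limma). For both genes the groups did not overlap, and the lowest day 18 dish was the one low in long transcripts. The 2 genes are neighbours on chromosome 11, 9.98 kb apart in GRCh38.p14.

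**Figure D2:**
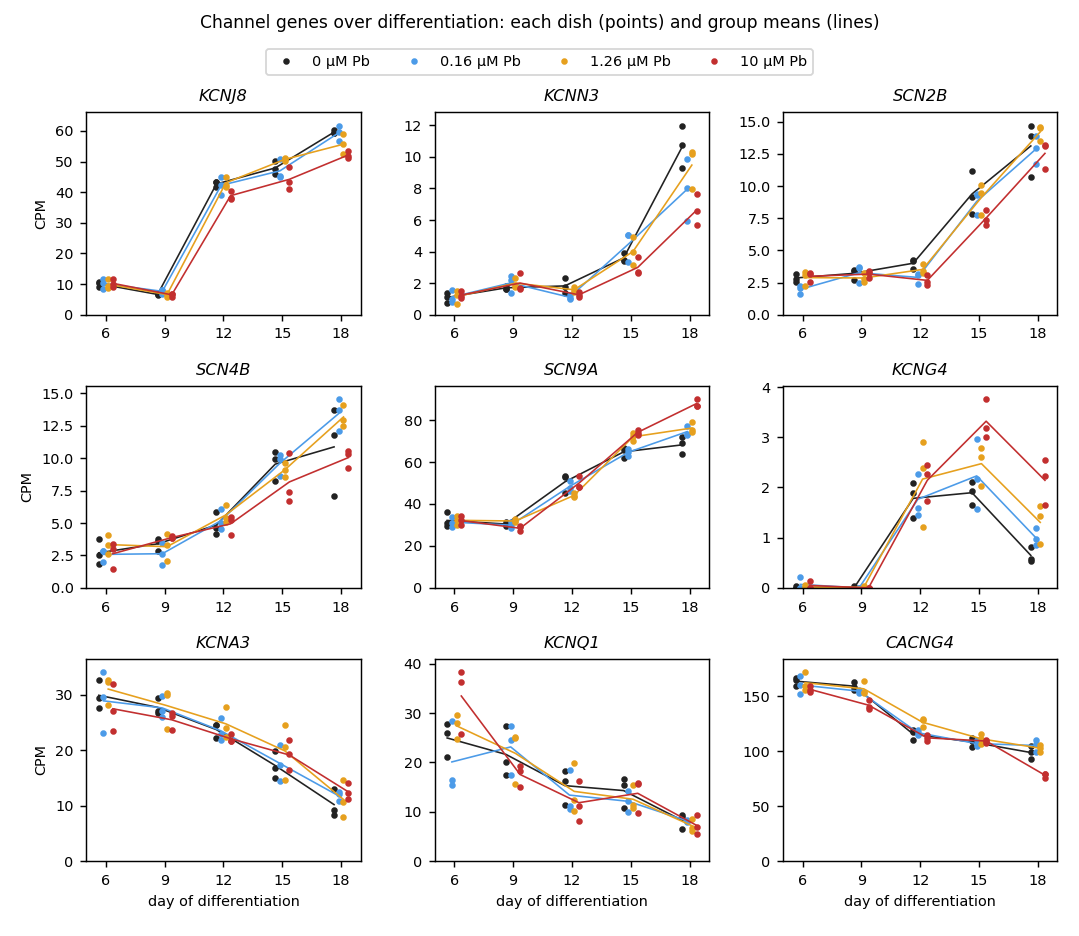
CPM of 9 channel genes at days 6 to 18 by Pb dose; points are dishes, lines join means of 3 dishes, and doses run from 0 µM (left, black) to 10 µM (right, red) at each day. KCNJ8 and KCNG4 step up between days 9 and 12, SCN2B and SCN4B between days 12 and 15, and KCNA3, KCNQ1 and CACNG4 decline.

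All 5 Cav alpha1 genes counted rose at day 18. CACNA1E encodes the R-type channel Cav2.3. It had 6.83, 6.33 and 9.70 CPM at day 18, against 1.00, 1.15 and 1.75 CPM at day 6, a log2 change of 1.90 (SE 0.18; adjusted p = 1.34e-12, limma). CACNA1B, the N-type channel of presynaptic terminals, had 23.0, 23.8 and 23.3 CPM at day 18, against 13.1, 12.2 and 13.5 CPM at day 6, a change of 0.81 (SE 0.10). Neither was called at day 12 against day 6, and at day 15 against day 12 CACNA1E was higher by 1.33 (SE 0.18) and CACNA1B by 0.57 (SE 0.10). CACNA1G, a T-type channel, rose by 1.03 (SE 0.19), CACNA1C, an L-type channel, by 0.52 (SE 0.12) and CACNA1D, another L-type channel, by 0.42 (SE 0.18). CACNA1C was the earliest of them, with a rise of 0.49 (SE 0.12) already at day 9.

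The auxiliary calcium channel genes split. CACNB1 rose to 40.8, 50.1 and 44.2 CPM at day 18, against 23.1, 21.9 and 18.8 CPM at day 6 (log2 change 1.05, SE 0.11), and CACNB3 rose by 0.38 (SE 0.07), while CACNB4 fell by 0.36 (SE 0.16) and CACNB2 gave -0.06 (SE 0.12). CACNA2D2 went down and up again without Pb. It had 246, 225 and 214 CPM at day 6, 160, 166 and 173 at day 9, 126, 131 and 127 at day 12, 285, 294 and 270 at day 15, and 159, 216 and 235 CPM at day 18. It was lower at day 12 than at day 6 (-0.83, SE 0.09) and higher at day 15 than at day 12 (1.14, SE 0.09; adjusted p = 1.54e-14, limma). CACNA2D1, the main target of gabapentin, fell by 0.57 (SE 0.15) at day 18, and CACNA2D3 rose by 0.87 (SE 0.23). None of the 3 HCN genes was called at day 18; HCN3 had 71.6, 94.7 and 81.2 CPM at day 18 and 82.8, 74.2 and 69.4 CPM at day 6, while HCN2 gave -0.03 (SE 0.21). At day 12 HCN3 fell to 61.1, 56.1 and 55.7 CPM (-0.38, SE 0.09); 13.5% of its exon bases overlap another gene.

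Among gamma genes, CACNG4, CACNG2 and CACNG7 fell and CACNG5 and CACNG8 rose; all of them belong to the group known as AMPA receptor partners. CACNG4 had 99.1, 104 and 92.7 CPM at day 18, against 166, 165 and 160 CPM at day 6, a log2 change of -0.72 (SE 0.05; adjusted p = 1.87e-18, limma). CACNG2 (stargazin) had 7.84, 4.84 and 7.59 CPM at day 18, against 17.4, 17.2 and 19.0 CPM at day 6 (-1.31, SE 0.18). CACNG5, 70.0 kb from CACNG4 on chromosome 17, had 3.61, 4.15 and 4.64 CPM at day 18, against 1.09, 0.786 and 1.64 CPM at day 6 (1.25, SE 0.18). The neighbours CACNG7 (-0.44, SE 0.11) and CACNG8 (0.51, SE 0.16), 19.0 kb apart on chromosome 19, also changed in opposite directions.

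Potassium channel genes included the largest changes of all. KCNJ8 encodes Kir6.1, the pore of an ATP-sensitive channel. It had 59.3, 60.2 and 59.3 CPM at day 18, against 10.7, 10.4 and 9.19 CPM at day 6, a log2 change of 2.45 (SE 0.09; adjusted p = 1.54e-27, limma). It first fell at day 9, to 6.71, 6.29 and 6.86 CPM (-0.54, SE 0.09), and then stood at 43.2, 41.7 and 43.2 CPM at day 12. Of its exon bases 10.8% are shared with another annotated gene. KCNJ5 (Kir3.4, a G protein-gated channel) had 3.74, 3.81 and 4.94 CPM at day 18, against 0.228, 0.0605 and 0.657 CPM at day 6 (1.99, SE 0.20). KCNJ10 (0.91, SE 0.19) and KCNJ11 (Kir6.2, 0.98, SE 0.20) were also higher. In KCNJ5, KCNJ10 and KCNJ11 no library of day 6 reached 1 CPM, so these differences from day 6 are a description. KCNJ9 (Kir3.3), 11.4 kb from KCNJ10 on chromosome 1, fell by 1.04 (SE 0.21).

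KCNN3, the small-conductance calcium-activated channel SK3 that shapes the afterhyperpolarisation, had the largest log2 change at day 18. It had 9.29, 12.0 and 10.7 CPM at day 18, against 1.37, 1.15 and 0.766 CPM at day 6 (2.48, SE 0.17; adjusted p = 2.48e-17, limma). At day 15 it was at 3.93, 3.41 and 3.45 CPM, so most of its rise lay between days 15 and 18, whose library names also differ in prefix. KCNN4 was higher as well (1.04, SE 0.18). All 11 libraries in which it reached 1 CPM were of day 18, so its difference is fixed by the filter. KCNT2, a sodium-activated channel, gave -0.47 (SE 0.16) at day 18 with overlapping groups, and -0.21 (adjusted p = 0.27, limma) without the day 18 dish low in long transcripts. KCNN1, the most abundant SK channel here, had 21.2, 17.8 and 18.5 CPM at day 18 and 19.4, 20.9 and 17.8 CPM at day 6.

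The EAG family changed in its make-up. KCNH6 had 37.4, 42.0 and 37.8 CPM at day 18, against 12.5, 11.7 and 8.90 CPM at day 6 (log2 change 1.75, SE 0.13), and KCNH4 (1.10, SE 0.16) and KCNH7 (0.64, SE 0.11) rose with it. KCNH2 fell to 229, 251 and 228 CPM at day 18, against 461, 401 and 346 CPM at day 6 (-0.76, SE 0.10; adjusted p = 3.15e-09, limma). KCNH1 had 12.7, 14.7 and 17.7 CPM at day 18 and 4.06, 2.62 and 3.52 CPM at day 12, with 6.69, 6.75 and 6.20 CPM at day 6. It was thus lower at day 12 (-0.79, SE 0.16) and higher at day 18 (1.08, SE 0.16), but 53.0% of its exon bases overlap another gene and its count is uncertain.

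Among Kv1 to Kv4 channels, KCNA3, KCNC1 and KCNC4 fell and KCND1 rose at day 18. KCNA3 had 8.31, 9.23 and 13.02 CPM at day 18, against 32.6, 27.6 and 29.5 CPM at day 6 (-1.48, SE 0.16; adjusted p = 2.35e-11, limma). Its neighbour KCNA2, 22.1 kb away, had 0.519, 1.02 and 1.33 CPM at day 18, against 0.182, 0.363 and 0.0729 CPM at day 6; 11 of the 17 libraries in which it reached 1 CPM were of day 18 and none of day 6, so this is a description. In the Kv7 family, which carries the M current, KCNQ1 (the cardiac and epithelial member) fell to 8.96, 6.44 and 9.28 CPM, against 26.0, 27.8 and 21.1 CPM at day 6 (-1.50, SE 0.25). KCNQ3, a neuronal member, had 0.502, 0.524 and 0.760 CPM at day 12, against 1.73, 1.63 and 1.24 CPM at day 6 (-0.67, SE 0.22), and was not called at day 18. KCNQ1OT1 lies inside KCNQ1 on the other strand and rose (0.60, SE 0.16); without a stated strand setting reads of the 2 cannot be told apart where they overlap.

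The silent Kv subunits, which form no channel alone and modify Kv2 channels, held a pair of genes that were much higher on later days. KCNG1 had 39.4, 38.5 and 36.6 CPM at day 18, against 8.20, 10.1 and 9.45 CPM at day 6 (1.94, SE 0.11; adjusted p = 5.69e-20, limma). KCNG4 was at 0 or 1 read in every dish without Pb at days 6 and 9, that is at most 0.0324 CPM, and had 1.39, 1.88 and 2.08 CPM at day 12, 1.93, 2.12 and 1.65 CPM at day 15 and 0.820, 0.579 and 0.542 CPM at day 18. All 30 libraries in which it reached 1 CPM were of days 12 to 18, so the step is a description, and no fold is given because the earlier dishes are under the 3-read floor. KCNAB1, a cytoplasmic beta subunit of Kv1 channels, rose to 4.07, 4.32 and 5.00 CPM at day 18, against 1.09, 0.544 and 1.46 CPM at day 6 (1.45, SE 0.16). KCNAB2 (-0.54, SE 0.12) and KCNAB3 (-0.38, SE 0.15), of the same beta family, fell at day 12 and were not called at day 18, and the silent subunit KCNG3 fell at day 18 (-0.68, SE 0.25).

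To show the sequence at the start of genes that were much higher on later days, the 250 bases upstream of the outermost start listed by RefSeq (GRCh38.p14) are printed 5′ to 3′ for KCNN3 (chr1:154870282-154870531, minus strand), KCNJ5 (chr11:128891106-128891355, plus), KCNH6 (chr17:63523108-63523357, plus) and KCNG4 (chr16:84240013-84240262, minus). Capitals mark E-boxes (CANNTG, the site of basic helix-loop-helix factors, which reads alike on both strands) and GC boxes (GGGCGG on either strand, the site of SP1-type factors); the 2 motifs cannot share more than their end bases.
KCNN3: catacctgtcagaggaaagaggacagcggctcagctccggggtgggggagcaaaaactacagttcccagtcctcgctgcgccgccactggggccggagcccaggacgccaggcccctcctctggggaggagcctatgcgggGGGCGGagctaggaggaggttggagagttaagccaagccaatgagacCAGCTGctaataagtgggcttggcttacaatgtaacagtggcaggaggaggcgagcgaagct
KCNJ5: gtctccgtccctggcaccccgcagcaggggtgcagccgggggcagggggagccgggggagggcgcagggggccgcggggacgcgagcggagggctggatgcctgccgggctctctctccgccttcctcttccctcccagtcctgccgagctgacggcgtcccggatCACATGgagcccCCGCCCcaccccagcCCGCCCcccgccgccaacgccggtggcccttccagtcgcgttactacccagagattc
KCNH6: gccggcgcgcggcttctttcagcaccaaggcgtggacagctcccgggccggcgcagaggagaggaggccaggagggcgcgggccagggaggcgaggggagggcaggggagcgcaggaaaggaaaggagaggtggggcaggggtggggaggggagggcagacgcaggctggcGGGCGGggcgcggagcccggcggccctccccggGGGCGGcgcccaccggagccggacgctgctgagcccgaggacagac
KCNG4: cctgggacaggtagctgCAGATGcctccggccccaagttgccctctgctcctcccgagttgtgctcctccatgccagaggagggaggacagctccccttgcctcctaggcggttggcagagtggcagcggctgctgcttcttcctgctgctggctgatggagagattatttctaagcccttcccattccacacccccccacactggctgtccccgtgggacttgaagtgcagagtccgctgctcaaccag
KCNN3 has 1 E-box and 1 GC box, KCNJ5 1 and 2, KCNH6 0 and 2, and KCNG4 1 and 0. Over 35116 promoters of 27305 genes listed by RefSeq, 61.8% hold an E-box and 42.6% a GC box in 250 bases, and over the 93 promoters listed for 57 of the channel genes these shares are 51.6% and 58.1%. GENCODE 29 places 24 exon bases within the KCNH6 window and none in the other 3. A match describes these letters only and says nothing of binding.

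At day 12 against day 6, 29 channel genes rose and 12 fell, 41 of 83, beside 56.2% of all genes (21.6% higher, 34.6% lower); the median log2 change was 0.22 for the channel genes and -0.11 over all genes. Rescaling libraries by median ratio moved the median of all genes by 0.10, to -0.01, and then 37 channel genes were higher and 9 lower. The share of all genes called after rescaling was not counted, and the shares above belong to the fit without it. Of the 10 two-pore leak channels, 8 rose, 0 fell, and the median log2 change was 0.65. Mesenchymal markers moved at the same step: 4 of the 5 that passed the filter were higher at day 12 and 1 lower (median 1.26). Of the 6 noradrenergic markers, TH (3.65, SE 0.17) and DBH (3.41, SE 0.07) were higher and 2 were lower (median 0.05). The part of these markers in the channel changes was not tested. At day 15 against day 6, 5 of the two-pore genes were higher and 0 lower, beside 26.2% of all genes higher and 32.2% lower. KCNK1 (TWIK-1) had 17.7, 17.9 and 20.4 CPM at day 12, against 9.65, 7.53 and 10.6 CPM at day 6 (0.95, SE 0.12), and 17.2, 18.4 and 19.5 CPM at day 15. KCNK15 (TASK-5; 21.7% of its exon bases overlap other genes) had 5.18, 6.01 and 8.08 CPM at day 12, against 1.73, 1.09 and 0.474 CPM at day 6 (1.85, SE 0.26), and 4.64, 6.18 and 8.31 CPM at day 15. KCNK9 (TASK-3, an acid-sensitive leak channel) had 4.64, 7.03 and 5.08 CPM at day 12, against 2.19, 1.51 and 1.42 CPM at day 6 (1.28, SE 0.19). KCNK12 (THIK-2) rose at day 12 (0.72, SE 0.23) and fell at day 18 (-0.76, SE 0.23), both against day 6. KCNK9, KCNK13 and KCNK6 were lower again at day 15 than at day 12 (-0.84, -0.82 and -0.67). KCNK13 reached 1 CPM in 5 libraries of day 12, 2 of day 9 and 0 of the other days. It thus passed the filter mainly through day 12, and its values over days, in the class count as well, are a description. KCNT1, a sodium-activated channel known as Slack, had 24.7, 27.1 and 23.4 CPM at day 12, against 11.2, 13.4 and 11.0 CPM at day 6 (1.02, SE 0.15), and stood at 9.35, 11.5 and 15.2 CPM at day 18.

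At day 9, 7 channel genes were called (5 higher, 2 lower), beside 5.14% of all genes (2.63% higher, 2.51% lower). They were KCNQ5 (0.91, SE 0.17), KCNK9, KCNG1, CACNA1C and KCNG2, which rose, and KCNJ8 and CACNA2D2, which fell. KCNQ5, a neuronal Kv7 channel, had 6.22, 6.94 and 5.72 CPM at day 9, against 2.96, 2.96 and 2.66 CPM at day 6. At day 15, 39 channel genes rose and 8 fell against day 6, 47 of 83, beside 58.3% of all genes (26.2% higher, 32.2% lower). At day 15 against day 12, 23 rose and 7 fell, beside 37.0% of all genes (22.3% higher, 14.8% lower). All comparisons with day 6 share the same 3 dishes of that day. Counting the day on which each gene had its highest mean without Pb, 10 genes had it at day 6, 9 at day 9, 13 at day 12, 17 at day 15 and 34 at day 18. The same count was not made over all genes, so these numbers do not set channel genes apart. They include the 11 genes with no day 6 library at 1 CPM, and day 18 cannot be told apart from its name prefix.

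**Figure D3:**
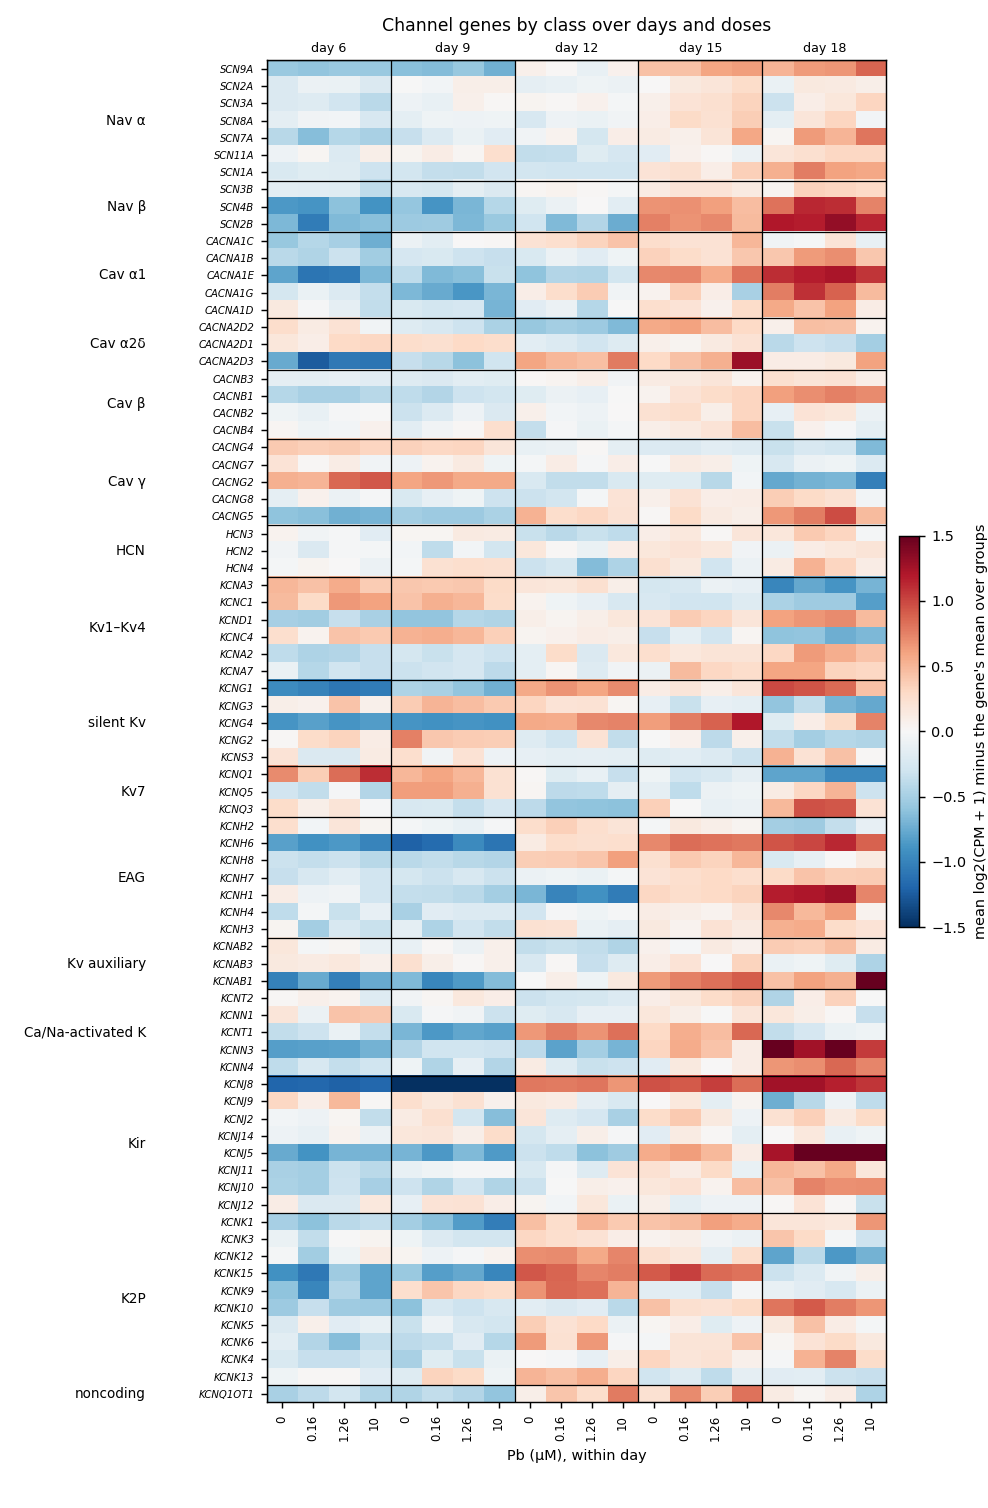
Channel genes by class (rows) over the 20 groups (columns, days 6 to 18 with doses 0, 0.16, 1.26 and 10 µM within each day); colour is the mean log2(CPM + 1) of 3 dishes minus the gene's mean over groups, red higher and blue lower, saturating at the ends of the bar. Columns of the same day resemble each other across doses, and most K2P rows are red at day 12.

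Of 37 genes known as channel partners (potassium channel interacting proteins, calmodulins, sodium leak channel subunits and others), 30 passed the filter; at day 18 against day 6, 12 rose and 8 fell, beside 66.8% of all genes called (32.1% higher, 34.7% lower). KCNIP2, which binds Kv4 channels (2.63, SE 0.15), rose, as did the sodium leak channel NALCN (1.81, SE 0.19) and the calmodulin gene CALM2 (0.96, SE 0.06). The NALCN partners UNC79 (-0.79, SE 0.11), UNC80 (-0.40, SE 0.09) and NALF1 (-0.40, SE 0.08) fell, as did KCNMB4, an auxiliary subunit of the BK channel (-1.33, SE 0.29).

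The second question is what Pb did. Averaged over the 5 days, with each day's dishes compared among themselves, 10 µM Pb against 0 µM gave 15 of 83 channel genes called, 6 higher and 9 lower, beside 15.1% of all genes (6.93% higher, 8.13% lower); the median difference was -0.03 over the channel genes and 0.00 over all genes. With libraries rescaled by median ratio the split was 9 higher and 8 lower, and the share of all genes called was not counted on that scale. Without day 18, 4 channel genes were called, beside 9.81% of all genes. All doses are compared with the same 0 µM dishes. Mesenchymal markers moved with the dose: 5 of 7 passed the filter and all 5 were lower at 10 µM (median -0.64), their summed level being 80.7 to 87.6 CPM at 10 µM and 197 to 201 CPM at 0 µM at day 12. Neuronal markers were called higher for 5 of 8 (median 0.07) and noradrenergic markers lower for 3 of 6 (median -0.11). In these bulk samples fewer cells of a type and less RNA per cell cannot be told apart, and the part of these shifts in the channel results was not tested.

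CACNA2D2, CACNB4 and KCNJ2 differed at 10 µM in all alternatives run and without any 1 library. CACNA2D2, the alpha2delta subunit most abundant here, was lower on 5 of 5 days (-0.20, SE 0.04; adjusted p = 0.000225, limma). Its values were 135, 143 and 131 CPM at 10 µM, against 160, 166 and 173 CPM at 0 µM, at day 9, and 221, 239 and 242 CPM at 10 µM, against 285, 294 and 270 CPM at 0 µM, at day 15. At day 18 it had 198, 190 and 202 CPM at 10 µM, against 159, 216 and 235 CPM at 0 µM, and the groups overlapped. CACNB4, a neuronal beta subunit, was higher on 5 of 5 days (0.27, SE 0.07; adjusted p = 0.00631, limma), with 4.21, 4.05 and 5.07 CPM at 10 µM, against 2.96, 2.63 and 3.67 CPM at 0 µM, at day 9.

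KCNJ2 encodes Kir2.1, the classical strong inward rectifier that holds the resting potential. It was lower at 10 µM on 4 of 5 days (-0.41, SE 0.08; adjusted p = 0.000129, limma). It had 4.90, 2.72 and 3.57 CPM at 10 µM, against 6.22, 8.88 and 5.78 CPM at 0 µM, at day 9 (-0.76, SE 0.18), and 4.55, 3.75 and 4.13 CPM at 10 µM, against 7.03, 6.41 and 8.24 CPM at 0 µM, at day 12 (-0.68, SE 0.18). On both days the groups did not overlap. At day 18 it had 7.07, 8.33 and 8.07 CPM at 10 µM and 8.34, 6.57 and 7.47 CPM at 0 µM. Without day 18 the mean difference was -0.53 (SE 0.09; adjusted p = 0.000134, limma). Over the 4 doses KCNJ2 had the smallest p of the dose slopes, -0.14 log2 units per dose step (SE 0.03; adjusted p = 2.92e-05, limma); 18 channel genes had such a slope, 10 upward and 8 downward, beside 15.7% of all genes (7.26% upward, 8.39% downward).

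**Figure D4:**
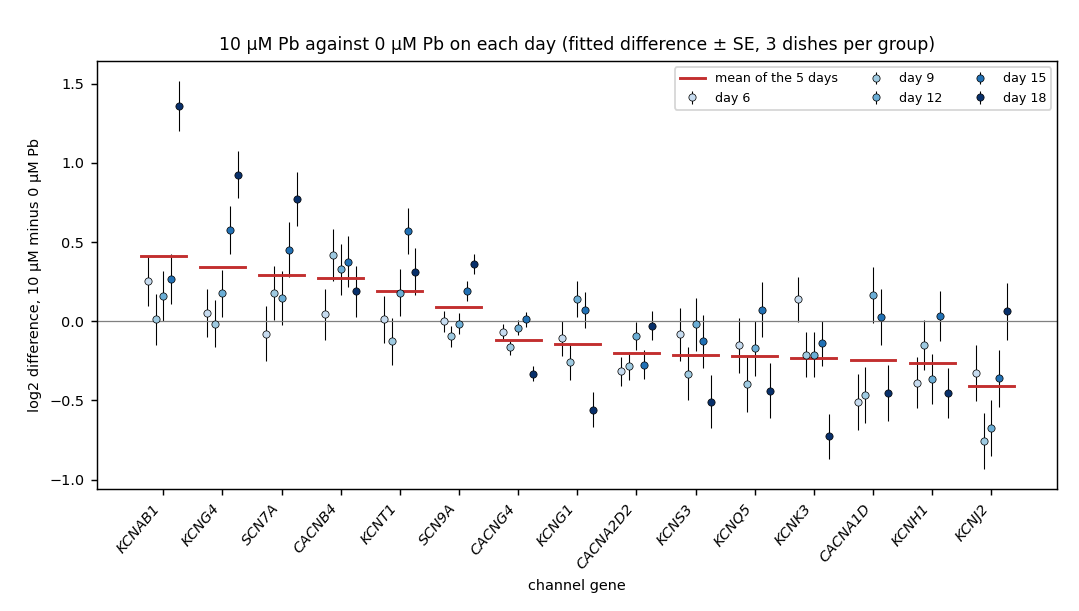
Fitted log2 difference of 10 µM against 0 µM Pb on each day for the 15 channel genes called as the mean of the 5 days; points are days 6 to 18 from left to right with SE, red bars are the mean of the days, and the grey line is no difference. KCNAB1, KCNG4, SCN7A and SCN9A lie highest at day 18, KCNJ2 lies lowest at days 9 and 12, and CACNA2D2 is below 0 on every day.

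Calls at 10 µM were most frequent at day 18. There 21 of 83 channel genes were called at 10 µM, 11 higher and 10 lower, beside 28.9% of all genes (12.1% higher, 16.9% lower). After rescaling 13 were higher and 8 lower, and the share of all genes was not counted on that scale. KCNAB1 had 13.9, 12.8 and 12.4 CPM at 10 µM, against 4.07, 4.32 and 5.00 CPM at 0 µM, a log2 difference of 1.36 (SE 0.16; adjusted p = 3.32e-09, limma). The 0.16 µM dishes had 6.63, 4.43 and 4.60 CPM and the 1.26 µM dishes 5.34, 5.48 and 3.83 CPM, so the step lay between 1.26 and 10 µM. On earlier days its differences ran from 0.01 to 0.27, and without day 18 its mean difference was not called.

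SCN9A, which rose over time without Pb, was higher still at 10 µM at day 18. On earlier days its differences ran from -0.10 to 0.19, and without day 18 its mean difference was not called. At day 18 it had 86.7, 90.1 and 86.8 CPM at 10 µM, against 69.0, 71.9 and 63.7 CPM at 0 µM (0.36, SE 0.06, adjusted p = 2.18e-05, limma). SCN3A (Nav1.3, an embryonic channel) had 44.1, 39.2 and 39.6 CPM at 10 µM, against 21.3, 25.5 and 31.4 CPM at 0 µM (0.65, SE 0.13), and the difference was 0.52 (SE 0.11; adjusted p = 0.00036, limma) without the 2 libraries low in long transcripts. SCN7A had 1.86, 2.17 and 1.90 CPM at 10 µM, against 0.492, 0.919 and 0.844 CPM at 0 µM (0.77, SE 0.17). KCNG4 had 1.66, 2.54 and 2.23 CPM at 10 µM, against 0.820, 0.579 and 0.542 CPM at 0 µM (0.93, SE 0.15), and was higher at day 15 as well, with 3.77, 3.19 and 3.00 CPM at 10 µM, against 1.93, 2.12 and 1.65 CPM at 0 µM (0.58, SE 0.15). KCNH2 (0.38, SE 0.10) and KCNK1 (0.48, SE 0.12) were also higher.

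Lower at day 18 with 10 µM were genes of several classes. KCNK3 (TASK-1, an acid-sensitive leak channel) had 8.44, 7.21 and 7.17 CPM at 10 µM, against 14.8, 12.3 and 12.7 CPM at 0 µM (-0.73, SE 0.14; adjusted p = 9.8e-05, limma). KCNG1 had 24.6, 27.7 and 24.6 CPM at 10 µM, against 39.4, 38.5 and 36.6 CPM at 0 µM (-0.56, SE 0.11). KCNN3 had 5.66, 7.65 and 6.55 CPM at 10 µM, against 9.29, 12.0 and 10.7 CPM at 0 µM (-0.62, SE 0.17). KCNH4, an EAG family channel, had 5.33, 4.48 and 5.27 CPM at 10 µM, against 8.80, 8.82 and 8.08 CPM at 0 µM (-0.67, SE 0.16). CACNG4 had 79.3, 79.3 and 75.7 CPM at 10 µM, against 99.1, 104 and 92.7 CPM at 0 µM (-0.33, SE 0.05; adjusted p = 2.28e-07, limma). None of these groups overlapped. Of the 21 calls 12, those of KCNAB1, SCN9A, SCN3A, SCN7A, KCNG4, KCNH2, KCNK1, KCNK3, KCNG1, KCNN3, KCNH4 and CACNG4, were kept in every alternative and without any 1 library. Those of KCNH8, KCNT2, SCN3B, KCNJ5, KCNS3, CACNG8 and CACNA1D were lost without the 2 libraries low in long transcripts.

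**Figure D5:**
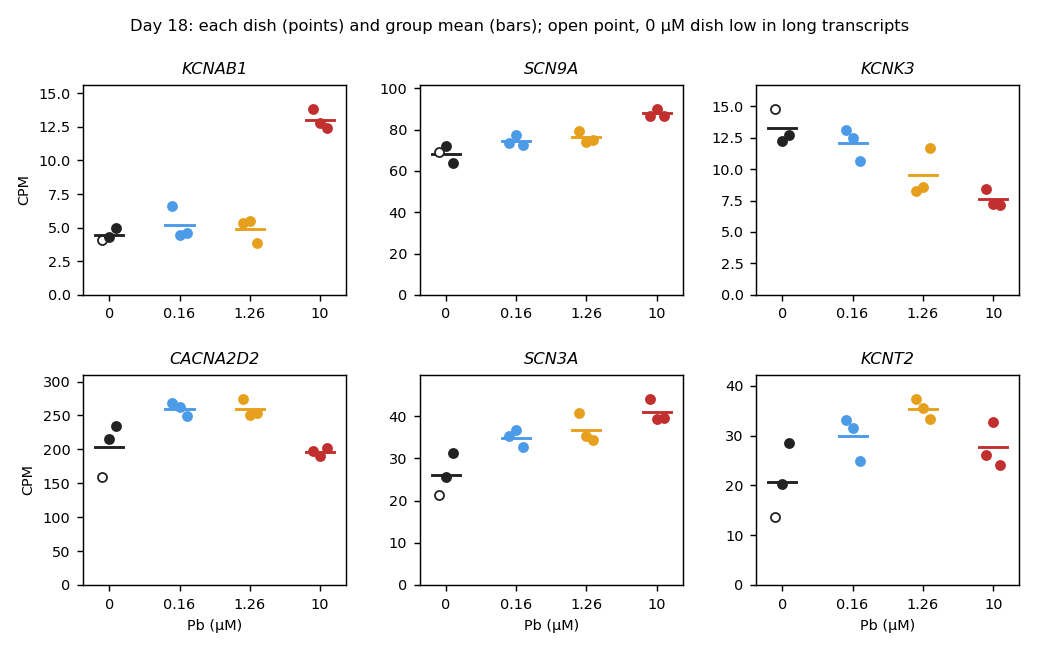
CPM at day 18 of 6 channel genes by Pb dose (0, 0.16, 1.26 and 10 µM); points are dishes, bars are means of 3 dishes, and the open point is the 0 µM dish low in long transcripts. KCNAB1 and SCN9A are highest and KCNK3 is lowest at 10 µM, and for CACNA2D2, SCN3A and KCNT2 the open point is the lowest of the 0 µM dishes.

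On earlier days few channel genes were called at 10 µM Pb. At day 6, 1 day after exposure began, 0 were called by limma and 0 by edgeR (9 at an unadjusted p under 0.05), beside 0.655% of all genes. At day 9 KCNK1 (-0.53, SE 0.12) and KCNJ2 were lower, beside 1.41% of all genes (0.446% higher, 0.963% lower). At day 12, 5 were called, beside 5.37% of all genes (3.03% higher, 2.34% lower): KCNQ1OT1 and CACNG8 were higher, and KCNJ2, SCN2B and KCNK6 lower. SCN2B had 2.57, 2.32 and 3.12 CPM at 10 µM, against 3.59, 4.25 and 4.16 CPM at 0 µM, at day 12 (-0.45, SE 0.13). At day 15, 4 were called and all were higher, beside 5.68% of all genes (2.50% higher, 3.18% lower): CACNA2D3, KCNT1, KCNG4 and KCNQ1OT1. CACNA2D3 had 7.69, 9.41 and 5.61 CPM at 10 µM, against 3.50, 3.70 and 2.65 CPM at 0 µM (0.99, SE 0.23; adjusted p = 0.0039, limma). Leaving out single dishes gave 0 to 3 calls at day 6, 0 to 2 at day 9, 1 to 4 at day 12 and 1 to 5 at day 15.

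The low doses gave calls only at day 18. There 6 channel genes were higher at 0.16 µM, beside 6.34% of all genes (5.19% higher, 1.15% lower), and 10 were called at 1.26 µM (9 higher, 1 lower), beside 12.4% of all genes (9.10% higher, 3.28% lower). In the 8 low-dose contrasts of days 6 to 15, 0 were called by limma and 0 by edgeR, with 2 to 8 genes at an unadjusted p under 0.05 in each. Of all genes, 0% were called at 0.16 µM at day 6, 0.0131% at day 9, 0.0197% at day 12 and 0.0131% at day 15, and at 1.26 µM 0% at day 6, 0.400% at day 9, 0.0459% at day 12 and 1.26% at day 15. KCNT2 had 33.1, 31.6 and 24.9 CPM at 0.16 µM and 37.4, 35.5 and 33.3 CPM at 1.26 µM, against 13.6, 20.3 and 28.4 CPM at 0 µM. Its difference was 0.55 (SE 0.16) at 0.16 µM and 0.80 (SE 0.16) at 1.26 µM. CACNA2D2, lower at 10 µM on average, was higher at both low doses at day 18, by 0.37 each (SE 0.09), with 268, 262 and 249 CPM at 0.16 µM and 274, 250 and 254 CPM at 1.26 µM. The lowest 0 µM dish is replicate 1, low in long transcripts; without the 2 libraries of that kind the 16 low-dose calls became 3, those of KCNT2 (0.54, SE 0.14), KCNK4 (0.87, SE 0.17) and SCN3A (0.36, SE 0.11) at 1.26 µM, and 1 call was left when only that day 18 dish was left out. Of the exon bases of KCNK4 61.9% are shared with a readthrough gene. KCNK4 reached 1 CPM in only 7 libraries, 5 of day 18 and 2 of day 15, so its difference at day 18 is a description.

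As means over days, 0.16 µM gave 0 channel genes called by limma and 0 by edgeR, with 8 at an unadjusted p under 0.05, beside 0.124% of all genes. At 1.26 µM only KCNT2 was called (0.26, SE 0.07; adjusted p = 0.0357, limma), higher on 5 of 5 days, beside 3.84% of all genes (1.67% higher, 2.17% lower), and without day 18 it was not called. Of 30 channel partners 3 were called at 10 µM, 1 higher and 2 lower, beside 15.1% of all genes (6.93% higher, 8.13% lower). The lower ones were CALM3 (-0.09, SE 0.02) and FGF14, a sodium channel modulator (-0.13, SE 0.03).

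Whether the 10 µM difference itself changed between days was tested with a moderated F test over the 5 days. It passed for 16 of 83 channel genes, beside 21.7% of all genes, and for 3 without day 18, beside 5.41%. KCNAB1 had the smallest p. KCNK1 was lower at day 9 and higher at day 18, with 7.31, 6.40 and 4.63 CPM at 10 µM, against 7.73, 10.7 and 9.21 CPM at 0 µM, at day 9, and 23.3, 20.1 and 22.04 CPM at 10 µM, against 16.5, 15.4 and 14.1 CPM at 0 µM, at day 18. KCNQ1OT1 was higher at day 12 (0.69, SE 0.16) and day 15 (0.58, SE 0.16) and lower at day 18 (-0.58, SE 0.16); its reads may include those of KCNQ1, which lies over it.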

How the data were processed

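The authors deposited 1 table of CPM values, that is reads per 1000000 assigned reads, for 60 libraries and 37334 genes. Per the submitters' processing notes the tools were FastQC, MultiQC, STAR and featureCounts with the build GRCh38; versions, annotation and strand setting are not given in the sources used here. Every deposited CPM value was a whole number of reads within 0.01 read (100% of values; largest deviation 0.000171), so whole reads were recovered, and totals were 16594259 to 50539599 reads. Intervals and floors cover counting error only.

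A gene was tested where 3 or more libraries reached 1 CPM. log2(CPM + 1) was fitted with 1 mean per group in all 60 libraries by limma 3.58.1 (R 4.3.3, prior variance trend, 40 residual degrees of freedom), with two-sided tests and Benjamini-Hochberg adjustment over 15263 genes. The replicate is the dish, so p-values measure the spread between dishes of 1 line. Exon lengths and overlaps come from GENCODE 29 and sequences from RefSeq (GRCh38.p14); the authors' annotation may differ. The fit was tested on simulated data.

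Genes named were up to 3 per class by mean level and, per comparison, the called genes with the smallest p, up to 8 in each direction for days against day 6 and the 10 µM mean and up to 3 elsewhere; some genes that the rule names are not reported here, and other genes of a class, neighbours and genes set beside a class count were named after their values were seen. The members, the lists and the comparisons were chosen with earlier results of these data known. Alternatives were a pseudocount of 0.25, no filter, median-ratio rescaling, only the groups compared, a replicate block, edgeR 4.0.16 on the recovered reads, correction for GC content and length (14132 genes), leaving out 2 libraries, day 18 or each library in turn, and, for the slope, dose linear in µM.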

Additional observations from a re-analysis of the deposited data

Results flagged for a closer look

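For 16 channel genes the difference between 10 and 0 µM Pb differed between the 5 days by a moderated F test over 4 contrasts (limma, adjusted over 15263 genes), beside 21.7% of all genes. The adjusted p was 5.22e-05 for KCNAB1, 7.08e-05 for KCNQ1OT1, 0.00025 for KCNK1, 0.000662 for CACNG4 and 0.000739 for SCN9A. It was 0.00237 for KCNG4, 0.00277 for KCNH4, 0.00312 for SCN3A, 0.00543 for KCNG1 and 0.0124 for KCNH2. It was 0.0171 for KCNK3, 0.0195 for CACNA2D3, 0.0212 for CACNG8, 0.0271 for KCNK6, 0.0414 for KCNJ5 and 0.0463 for SCN3B. Without day 18, whose libraries carry a name prefix of their own, 3 of the channel genes passed, beside 5.41% of all genes: KCNQ1OT1 (adjusted p = 0.0219), KCNK6 (0.0287) and KCNK1 (0.033). The 3 dishes per group were too few for a test of outlying dishes within a group. Leaving out single libraries in turn gave 13 to 19 calls of the F test over the 5 days.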

How the results depend on the processing

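Of 15263 genes tested and 83 channel genes counted, no called channel gene reversed its sign under the alternatives run; signs were not followed for uncalled genes or for the low doses within single days. With no filter on low values the calls became 0 for the 1.26 µM mean, 2 for 10 µM at day 12 and 9 for the low doses within days. With only the groups compared in the fit they became 0 for 10 µM at day 9, 2 at day 12, 0 for the low doses within days and 10 for the F test over days; this fit was not run for the dose slope. Without the 2 libraries low in long transcripts they became 4 for 10 µM at day 9 and 3 for the low doses. Without day 18 they became 4 for the 10 µM mean, 0 for the 1.26 µM mean, 4 for the slope and 3 for the F test. The cause was not tested. The other counts stayed within 1.5 times, edgeR included.

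Leaving out each library in turn gave 4 to 10 calls for day 9 against day 6, 0 to 3, 0 to 2, 1 to 4 and 1 to 5 for 10 µM at days 6, 9, 12 and 15, and 0 to 4 for the 1.26 µM mean. The low doses within days gave 1 call without day 18 0 µM replicate 1 and 19 without replicate 3 of the same group. For 10 µM at day 18 the range was 16 to 24, and for the 10 µM mean 10 to 21. Replicate numbers did not pair the dishes: correlations of same-numbered dishes' deviations ran from -0.57 to 0.53 (mean 0.0222; -0.0108 for other numbers). With the replicate block 8, 42, 47 and 56 channel genes were called at days 9, 12, 15 and 18 against day 6, 13 for the 10 µM mean and 20 for 10 µM at day 18. Channel genes near 1 CPM rest on few reads, and 17 of 83 were at or under 3 reads in at least 1 library.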
